A study of Mus musculus with 6 samples.

Results

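The mouse genes Aff4, Chtop, Axin1, Cnmd, Abcd2 and Tusc2 were examined transcript by transcript in retinas injected with NMDA and then given PBS or stem cell factor (SCF). They are 6 protein-coding genes among the 25202 genes, 14915 of them protein-coding, that had a value above 0. They were selected on measured values: the summed FPKM of each (fragments per length of transcript and per size of library) set all 3 NMDA + SCF libraries apart from all 3 NMDA + PBS libraries. Since this contrast chose them, their levels are a description and carry no p-value. The series compared retinas of wild type C57BL/6 mice, labelled postnatal week 5, after NMDA alone or NMDA with SCF. NMDA activates glutamate receptors and injures retinal ganglion cells, and SCF is the ligand of the receptor c-kit. Both groups received NMDA in the vitreous (2 μl, 100 mM) and 2 days later either PBS (NMDA + PBS, 3 libraries) or 2 μl of SCF at 50 ng/μl (NMDA + SCF, 3 libraries), and retinas were taken 1 week later. No uninjured retina was among the groups. The number of mice behind a library was not given in the sources used here, so spreads are those between libraries and may be technical.

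The 6 genes have unrelated known roles. Aff4 is the scaffold of the super elongation complex, which carries the kinase P-TEFb to paused RNA polymerase II, and Chtop is an RNA-binding protein of the TREX complex, which hands spliced mRNA to the export machinery. Axin1 is the scaffold on which β-catenin is phosphorylated for destruction, which keeps Wnt signaling off. Abcd2 carries very-long-chain fatty acyl-CoA into peroxisomes, Cnmd (chondromodulin) is a cartilage glycoprotein that restrains vessel growth, and Tusc2 is a small mitochondrial protein with a role in calcium handling. Each gene gives rise to a full-length coding mRNA and to other, mostly shorter, annotated transcripts, some of which keep an intron and encode no protein. The longest coding transcript of a gene is here the transcript with the longest coding sequence, which need not have the most bases. Since FPKM divides by length, 1 fragment assigned to a short transcript weighs more than 1 fragment assigned to a long one.

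The libraries did not share 1 list of transcripts. The values of all 3 NMDA + SCF libraries and of NMDA + PBS replicate 1 were given for 1 list (list A), and those of the remaining NMDA + PBS replicates, 2 and 3, for another (list B). Sums per gene were therefore made over the 46933 Ensembl transcripts in both lists, which left out 7529 transcripts of list A and 8966 of list B. Of the 33 transcripts annotated for the 6 genes, 16 were in both lists, 2 in list A alone, 1 in list B alone and 14, of which 12 are coding, in neither. The recovered depth was 3404338 to 4440585 counted fragments per library, or 14.1 to 18.2% of the clean read pairs. The first principal component of all genes held 53.3% of the variance and placed NMDA + PBS replicate 1 beside the NMDA + SCF libraries.

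In 5 of the 6 genes the larger part of the difference lay in transcripts with sequence that the longest coding transcript of the gene lacks. In Axin1 such a transcript supplied the value of NMDA + PBS replicate 1. For Cnmd, Abcd2 and Tusc2 the place of the difference was fixed in advance. Their longest coding transcripts were not in both lists and so not in these sums. Only Aff4, Chtop and Axin1 had their longest coding transcript in the sums. A window is shown of each such transcript that made up at least 20% of the difference of its gene. It holds bases by which the transcript differs from the longest coding one. How fragments were divided among overlapping transcripts is not given in the sources used here. Small letters are coding bases shared with the longest coding transcript, and capitals are the adjoining bases, up to 60, that lie outside its exons. Windows were read from GRCm38 at the GENCODE M21 exons and are written 5′ to 3′ on the strand of the gene.
Aff4-202: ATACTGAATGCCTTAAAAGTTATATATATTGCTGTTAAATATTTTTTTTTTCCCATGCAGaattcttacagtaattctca
Aff4-208: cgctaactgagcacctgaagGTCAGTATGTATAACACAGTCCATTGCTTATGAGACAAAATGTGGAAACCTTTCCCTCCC
Axin1-205: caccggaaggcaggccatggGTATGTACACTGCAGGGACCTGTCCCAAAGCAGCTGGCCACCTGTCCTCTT
Chtop-209: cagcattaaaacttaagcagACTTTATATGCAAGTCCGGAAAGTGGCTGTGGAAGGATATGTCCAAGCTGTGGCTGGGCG
Cnmd-205: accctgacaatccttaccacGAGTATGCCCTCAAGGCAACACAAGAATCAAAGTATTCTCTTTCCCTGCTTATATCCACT
Abcd2-202: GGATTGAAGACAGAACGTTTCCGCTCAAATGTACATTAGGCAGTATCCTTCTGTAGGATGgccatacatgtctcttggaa
Tusc2-202: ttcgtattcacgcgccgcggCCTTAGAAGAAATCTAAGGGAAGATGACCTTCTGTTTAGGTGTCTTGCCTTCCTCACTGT
The windows of Aff4-202 (chr11:53410856-53410935, + strand), Aff4-208 (chr11:53409342-53409421, + strand) and Axin1-205 (chr17:26188725-26188795, + strand) are unbroken in the genome and run from an exon into the intron beside it. Their capitals end in AG, the usual last bases of an intron, in Aff4-202 and start with GT, the usual first bases, in Aff4-208 and Axin1-205. The windows of Chtop-209 (chr3:90505419-90506127, - strand), Cnmd-205 (chr14:79641549-79641915, - strand), Abcd2-202 (chr15:91163180-91172149, - strand) and Tusc2-202 (chr9:107563513-107563888, + strand) join blocks that lie apart in the genome, so that their capitals are an alternative exon inside an intron of the longest coding transcript.

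Summed over the shared transcripts, Aff4, Chtop, Axin1, Cnmd and Abcd2 were lower and Tusc2 was higher in every NMDA + SCF library than in any NMDA + PBS library. Over all genes, 6.45% were lower and 7.63% higher without overlap between the groups, 1626 and 1922 genes, and with libraries scaled by the median of ratios the split was 1912 lower and 1356 higher. Limma called no gene at a fold of at least 2 and an adjusted p of at most 0.001 (0%), and the smallest adjusted p of any gene was 0.536. A count of 0 at this threshold does not show that no gene differed. Limma's unadjusted p was at most 0.05 for 1090 higher genes, or 4.33%, and for 1234 lower genes, or 4.9%. There were 2469 coding genes without overlap, 1516 higher and 953 lower. They were ranked by the gap between the nearest libraries of the groups on log2(FPKM + 1). Axin1 was 1, Cnmd 3, Tusc2 5, Abcd2 6, Chtop 8 and Aff4 17. The 6 genes were selected on this separation, so the ranks restate the selection. The gap of Axin1 rested on 3 fragments against 0, that of Abcd2 on 2 against 0 and that of Tusc2 on 5 against 1. In RNA of whole retina, fewer cells of a type and less RNA per cell cannot be told apart.

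**Figure D1:**
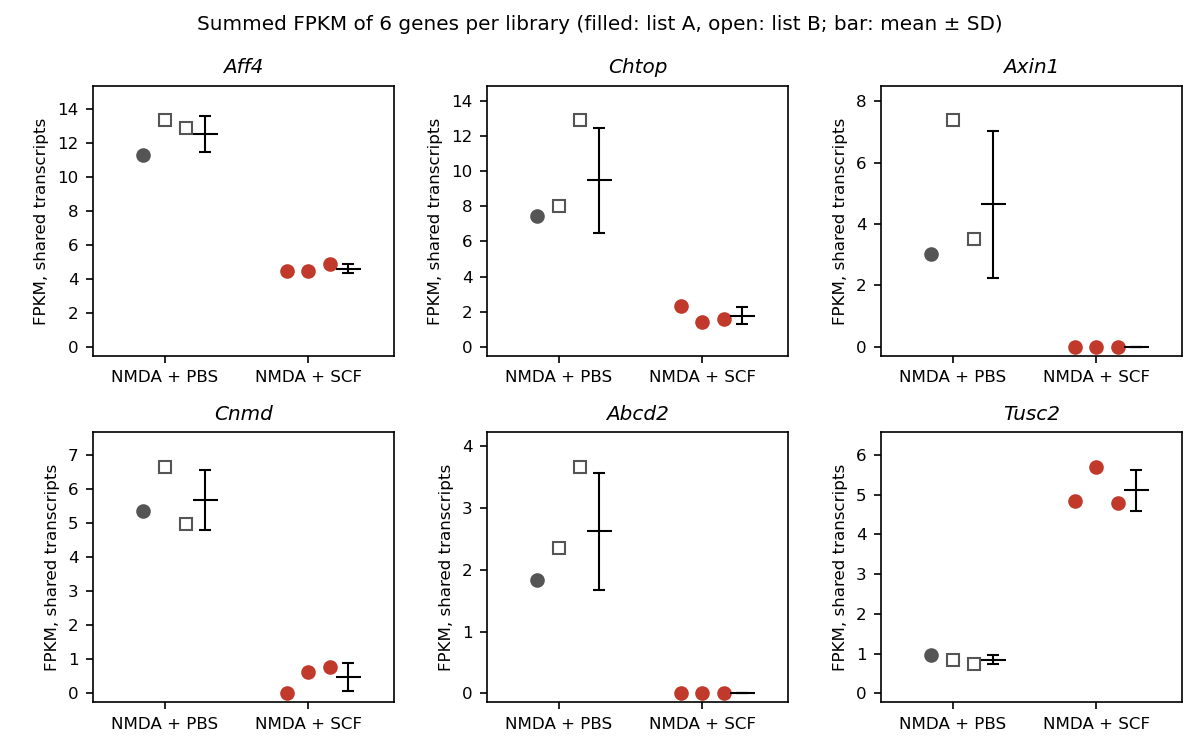
Summed FPKM over shared transcripts (y axis, linear from 0) for each of the 6 genes in the NMDA + PBS (grey) and NMDA + SCF (red) libraries. Filled circles are list A libraries, open squares list B libraries, and bars the mean ± SD of 3 libraries. The 3 libraries of each group lie on separate sides in every gene, with Axin1 and Abcd2 at 0 in all NMDA + SCF libraries.

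Aff4 was lower in NMDA + SCF over the shared transcripts. In the order of the replicates, the sum was 11.3, 13.4 and 12.9 FPKM in NMDA + PBS and 4.45, 4.44 and 4.90 FPKM in NMDA + SCF, or 12.5 ± 1.07 against 4.60 ± 0.263 (SD, n = 3). The groups did not overlap, and the libraries of each were close together. The log2 fold change, NMDA + SCF against NMDA + PBS, was -1.27 (SE 0.20), and -1.14 against NMDA + PBS replicate 1 alone, the NMDA + PBS library that shares list A. In fragments the sums were 66, 102 and 62 against 45, 39 and 35, which is 0.590 of the NMDA + PBS level per counted fragment (95% exact interval 0.469 to 0.739, counting error only), while the ratio of mean FPKM was 0.367. Such intervals on group ratios, here and below, pool 3 libraries per group for genes selected on this contrast. They are no test of a difference. With limma's voom on fragments the log2 fold change was -0.75.

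The difference in Aff4 lay mainly in transcripts other than the full-length coding mRNA. Aff4-201, which has 10099 bases, 3480 of them coding, was at 1.08, 1.57 and 0.334 FPKM in NMDA + PBS and at 0.954, 0.825 and 0.687 FPKM in NMDA + SCF. Its groups overlapped, with the lowest and the highest value both in NMDA + PBS, and it made up 2.16% of the difference between the group means. Aff4-202, a retained-intron transcript of 933 bases whose window is printed above, was at 5.35, 5.39 and 5.79 FPKM in NMDA + PBS (17, 20 and 24 fragments) and at 1.56, 0.616 and 0.930 FPKM in NMDA + SCF (5, 2 and 3 fragments). Its groups did not overlap, and it made up 56.4% of the difference. Of its bases, 23.8% lay outside the exons of Aff4-201. Aff4-208, a second retained-intron transcript, was at 2.14, 5.12 and 5.57 FPKM against 1.70, 2.93 and 1.26 FPKM. Its groups overlapped, and it made up 29.2%. The short coding transcript Aff4-207 with 11.4% and the retained-intron transcript Aff4-205 with 0.875% made up the rest, and both overlapped between the groups.

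Chtop was lower in NMDA + SCF mainly through an incomplete coding transcript. The sum was 7.45, 8.04 and 12.9 FPKM in NMDA + PBS and 2.34, 1.44 and 1.57 FPKM in NMDA + SCF, or 9.47 ± 3.0 against 1.78 ± 0.485 (SD, n = 3). The groups lay well apart, with NMDA + PBS replicate 3 above the other NMDA + PBS libraries. The log2 fold change was -1.89 (SE 0.30), and -1.62 against NMDA + PBS replicate 1 alone. Chtop-209, which has 889 bases and includes the alternative exon printed above, was at 3.30, 7.92 and 11.1 FPKM (10, 28 and 44 fragments) against 0.985, 1.29 and 0.976 FPKM (3, 4 and 3 fragments). Its groups did not overlap, it made up 82.9% of the difference, and within NMDA + PBS its level in the list A library was below both list B libraries. Chtop-208, a coding transcript of 637 bases that starts at another exon, had 9, 0 and 5 fragments against 2, 0 and 1, and its groups overlapped.

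Chtop-202, the longest coding transcript of Chtop, moved in the opposite direction from the gene sum on very few fragments. It had 0, 1 and 0 fragments in NMDA + PBS and 3, 1 and 1 in NMDA + SCF, or 0, 0.125 and 0 FPKM against 0.435, 0.143 and 0.144 FPKM. All values were at or below the level of 3 fragments, so no fold is given. The other 6 annotated transcripts of Chtop, all coding, were in neither transcript list, and their levels were not analysed here.

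Axin1 was listed at 0 in all 3 NMDA + SCF libraries, and its NMDA + PBS values came from different transcripts in different libraries. The sum was 3.03, 7.39 and 3.52 FPKM in NMDA + PBS replicates 1, 2 and 3 (4.65 ± 2.39, SD, n = 3). The log2 fold change on the log2(FPKM + 1) scale was -2.42 (SE 0.37) and depends on the pseudocount. Axin1-201, the full-length coding transcript of 3777 bases, had 111 and 59 fragments in NMDA + PBS replicates 2 and 3, or 7.39 and 3.52 FPKM, and 0 in the other 4 libraries. The libraries with a value were those of list B, and NMDA + PBS replicate 1 at 0 was on the side of the NMDA + SCF libraries. Against a floor of 3 fragments per library, the NMDA + SCF libraries were at least 23.7-fold lower than the list B libraries, and NMDA + PBS replicate 1 gave the same reading of 0. Axin1-205, a retained-intron transcript of 291 bases of which 17.5% lie outside the exons of Axin1-201, supplied the whole NMDA + PBS replicate 1 value with 3 fragments, or 3.03 FPKM, and was at 0 elsewhere. Neither transcript alone separated the groups, and the gene sum did. Axin1-202, Axin1-203 and Axin1-204, all coding, were in neither list.

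A list A against list B pattern of the same kind was present in other genes of the Axin1, Aff4, Chtop and Abcd2 pathways. Csnk1a1, the casein kinase that primes β-catenin for destruction, was at 1.05, 87.8 and 71.9 FPKM in NMDA + PBS and at 0.513, 0.632 and 0.763 FPKM in NMDA + SCF. Ccnt1, the cyclin of P-TEFb, was at 3.94, 41.2 and 53.6 FPKM against 1.91, 2.59 and 4.15 FPKM. In both, NMDA + PBS replicate 1 lay near the NMDA + SCF libraries and far from the other NMDA + PBS libraries. Zfp148, a transcription factor bound by the 5FMC complex of Chtop, showed the mirror image, with 20.4, 0.320 and 0.525 FPKM against 21.6, 26.9 and 25.2 FPKM. Crot, a peroxisomal carnitine acyltransferase, was at 54.3, 1.95 and 3.73 FPKM against 51.1, 65.6 and 61.8 FPKM. Between the list B libraries, which are all NMDA + PBS, and the NMDA + SCF libraries, treatment and transcript list cannot be told apart. NMDA + PBS replicate 1 shares its treatment with the list B libraries and its list with the NMDA + SCF libraries.

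Cnmd was lower in NMDA + SCF over its shared transcripts, all of which are noncoding. The sum was 5.37, 6.66 and 4.99 FPKM in NMDA + PBS (9, 12 and 10 fragments) and 0, 0.626 and 0.777 FPKM in NMDA + SCF (0, 1 and 1 fragments). The 3 NMDA + PBS libraries were alike whatever their list, and all were above the NMDA + SCF libraries. Per counted fragment the NMDA + PBS level was 13.6 times that of NMDA + SCF (95% exact interval 3.46 to 117, counting error only), and the log2 fold change was -2.22 (SE 0.35) over all libraries and -2.16 against NMDA + PBS replicate 1. Cnmd-205, a processed transcript of 459 bases with no coding sequence, had 7, 9 and 7 fragments against 0, 1 and 0 and made up 78.2% of the difference. Cnmd-202, a retained-intron transcript, had 2, 1 and 1 fragments against 0 in each NMDA + SCF library, and Cnmd-204, also with a retained intron, had 0, 2 and 2 against 0, 0 and 1 and overlapped. The coding transcript Cnmd-201, in list A only, was at 0 in NMDA + PBS replicate 1 and in all 3 NMDA + SCF libraries, where 3 fragments would have given 0.602 to 0.615 FPKM. Cnmd-203, which has the longest coding sequence, was in neither list.

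Abcd2 was listed at 0 in all 3 NMDA + SCF libraries, and its coding mRNA was measured only in list B. Over the shared transcripts the sum was 1.84, 2.36 and 3.67 FPKM in NMDA + PBS, from 2, 3 and 6 fragments. Abcd2-202, a processed transcript of 320 bases, had 2, 3 and 4 of these fragments and 0 in NMDA + SCF, where 3 fragments would have given 2.69 to 2.74 FPKM. Each NMDA + PBS value was thus at or near the level of 3 fragments, and no fold is given for single libraries or means. Over the groups, 11 fragments stood against 0, which allows a level in NMDA + SCF of up to 0.454 of that in NMDA + PBS per counted fragment (upper bound of the 95% exact interval, counting error only). Abcd2-203, a retained-intron transcript, had 2 fragments in NMDA + PBS replicate 3 and 0 elsewhere. Abcd2-201, the full-length coding transcript of 5532 bases, was at 26.7 FPKM in NMDA + PBS replicate 2 (587 fragments, 95% exact interval 24.6 to 28.9) and at 36.4 FPKM in replicate 3 (893 fragments, 34.0 to 38.8). It was in list B only, so that no value for it exists in NMDA + PBS replicate 1 or in NMDA + SCF, and the treatment comparison of the Abcd2 mRNA was not possible here.

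Tusc2 was the 1 gene of the 6 with higher values in NMDA + SCF. The sum, which for this gene is the single shared transcript Tusc2-202, was 0.973, 0.833 and 0.746 FPKM in NMDA + PBS and 4.83, 5.71 and 4.79 FPKM in NMDA + SCF. These values stand for 1 fragment in each NMDA + PBS library and for 5, 6 and 5 fragments in NMDA + SCF, a ratio of 6.08 per counted fragment (95% exact interval 1.74 to 32.6, counting error only). The log2 fold change was 1.72 (SE 0.28), and 1.63 against NMDA + PBS replicate 1 alone. Tusc2-202 is a processed transcript of 302 bases, 39.7% of which lie outside the exons of the coding mRNA.

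The coding mRNA of Tusc2, Tusc2-201, was far more abundant than Tusc2-202 and did not separate the groups. It was at 179 FPKM in NMDA + PBS replicate 1 (1013 fragments, 95% exact interval 168 to 190) and at 173, 179 and 192 FPKM in the NMDA + SCF libraries (988, 1036 and 1103 fragments). The NMDA + PBS library lay within the range of the NMDA + SCF libraries. It was in list A only, and the list B libraries have no value for it. Within list A, Tusc2-202 made up 0.541% of both transcripts in NMDA + PBS replicate 1 and 2.71, 3.09 and 2.44% in the NMDA + SCF libraries.

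With every listed transcript summed instead of the shared ones, Tusc2 no longer separated the groups, and the other 5 genes still did. Tusc2 then stood at 180, 0.833 and 0.746 FPKM in NMDA + PBS and at 178, 185 and 196 FPKM in NMDA + SCF, so that the list A library of NMDA + PBS fell inside the NMDA + SCF range. Abcd2 then stood at 1.84, 29.0 and 40.0 FPKM in NMDA + PBS and at 0 in NMDA + SCF, with the list B libraries above the list A library. Axin1, Aff4, Chtop and Cnmd kept the same sums, since none of their transcripts with a value above 0 was in 1 list alone.

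**Figure D2:**
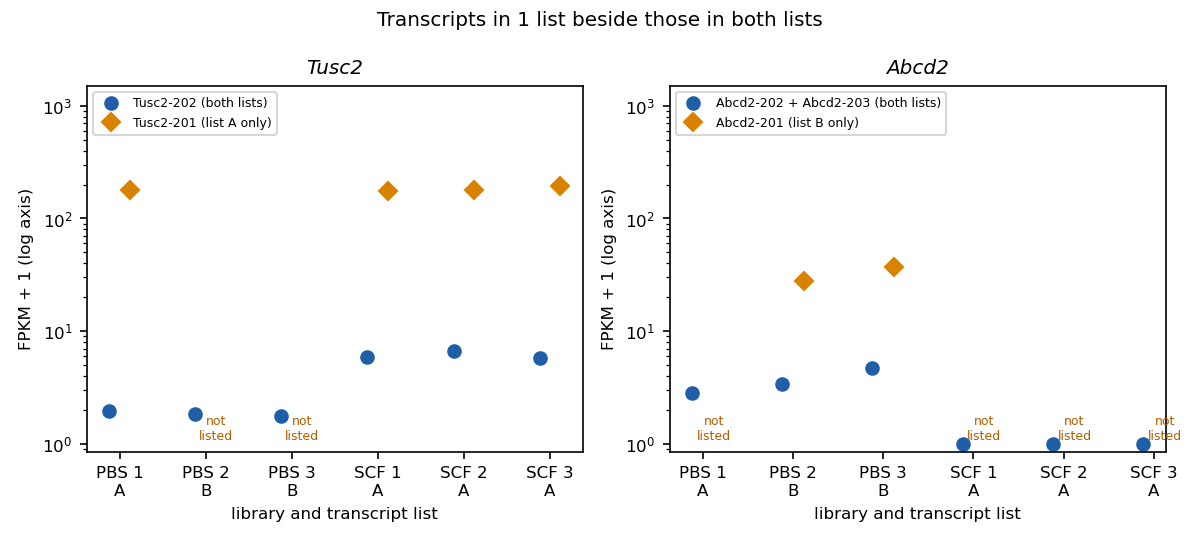
FPKM + 1 on a log axis for Tusc2 (left) and Abcd2 (right) in the 6 libraries, with the transcripts in both lists as blue circles and the coding transcript in 1 list as orange diamonds. Tusc2-201 lies between 173 and 192 FPKM in the 4 list A libraries, and Abcd2-201 has values of 26.7 and 36.4 FPKM in the 2 list B libraries only.

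Among the 16 shared transcripts of the 6 genes, 5 were lower and 2 higher in NMDA + SCF without overlap, and 9 overlapped. Over all shared transcripts, 6.79% were lower and 6.32% higher without overlap. The 6 genes were selected on the sums of these same transcripts, so their larger shares follow from the selection. The 7 transcripts of the 6 genes without overlap included 5 of the 10 noncoding ones. The coding ones were the incomplete Chtop-209 and the sparse Chtop-202. The groups of Chtop-202 lay apart in FPKM only. In fragments they met, with 1 in NMDA + PBS replicate 2 and 1 each in NMDA + SCF replicates 2 and 3. The longest coding transcript was in both lists for Aff4, Chtop and Axin1, or 3 of 6 genes, against 63.0% of all coding genes and 69.6% of coding genes without overlap. In 0 of these 3 did it separate the groups on its own in the direction of the gene, against 1343 of 1718 coding genes without overlap, or 78.2%. The highest fragment total of a library, over shared transcripts, had a median of 30.5 in the 6 genes and of 78 in coding genes without overlap.

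**Figure D3:**
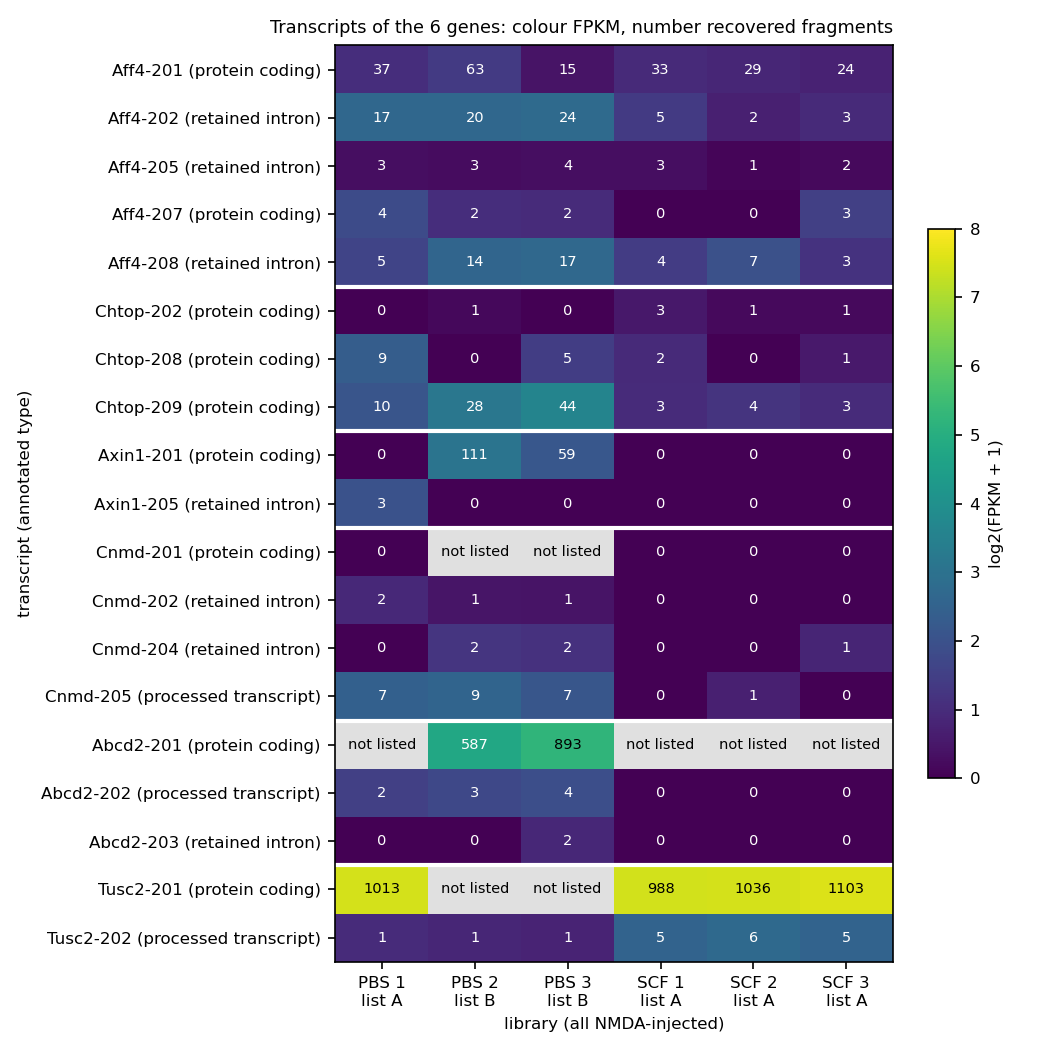
All 19 listed transcripts of the 6 genes (rows) in the 6 libraries (columns). Colour gives log2(FPKM + 1), the number in each cell the recovered fragments, and grey cells the transcripts outside the list of that library. Tusc2-201 and Abcd2-201 hold the highest counts in single lists, Axin1-201 has 111 and 59 fragments in the list B libraries alone, and most shared transcripts have under 30 fragments.

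The closest relatives of the 6 genes gave no call. Aff1, a super elongation complex scaffold related to Aff4, was at 2.14, 3.04 and 4.14 FPKM in NMDA + PBS and at 1.66, 0.731 and 1.13 FPKM in NMDA + SCF. Its groups did not overlap, with a log2 difference of -0.91 and a limma adjusted p of 0.536. Axin2, the Wnt-induced relative of Axin1, was at 1.06, 2.56 and 2.34 FPKM against 0.768, 1.17 and 0.689 FPKM, and Tnmd, the tendon relative of Cnmd, at 0, 8.18 and 0.499 FPKM against 0, 0 and 1.07 FPKM. Both overlapped between the groups. Abcd3 and Abcd4, relatives of Abcd2, overlapped likewise. Aff2 overlapped, and Aff3 was at 0 in all NMDA + SCF libraries and in NMDA + PBS replicate 2.

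The partners and pathway genes of the 6 genes were taken from lists for their complexes, organelles and genomic neighbourhood. Together with the relatives, 113 genes had a value above 0. Limma called 0 of them, and 13 were higher and 5 lower at an unadjusted p of at most 0.05, against 4.33% higher and 4.9% lower of all genes. Without overlap 12 were higher and 3 lower, against 7.63% and 6.45% of all genes, and nothing particular to the lists was tested. Their median log2 difference was 0.025, against -0.006 over all genes. Of 14 super elongation complex and P-TEFb genes, 1 was higher and 2 were lower at that unadjusted p. The higher gene was Hexim1, an inhibitor of P-TEFb, at 114, 99.2 and 64.4 FPKM against 160, 141 and 140 FPKM, a log2 difference of 0.70 (limma adjusted p = 0.536). The lower ones, Ccnt1 and Eaf1, followed the lists, with Eaf1, a cofactor of the elongation factor ELL, at 0.0597, 20.4 and 20.7 FPKM against 0.119, 0 and 0.118 FPKM. Larp7, which holds P-TEFb in its inactive particle, was at 17.2 to 27.0 FPKM against 26.6 to 32.4 FPKM.

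Of the partners of Chtop, most did not pass the unadjusted threshold. Of 12 TREX genes, 3 were higher and 0 lower at an unadjusted p of at most 0.05. Nxf1, the mRNA export receptor, was at 25.3, 35.5 and 28.2 FPKM against 50.5, 36.5 and 41.0 FPKM, and Thoc5, a subunit of the THO core of TREX, at 7.22, 6.88 and 5.81 FPKM against 11.2, 10.2 and 14.5 FPKM. The groups did not overlap in either. Zc3h11a, a TREX-associated zinc finger protein, was at 5.47, 4.81 and 4.62 FPKM against 5.16, 12.1 and 15.8 FPKM, and Thoc3, the most abundant TREX gene of the list, at 32.9 to 47.7 FPKM against 44.0 to 60.7 FPKM, and both overlapped. Of 8 genes of the PRMT1 and 5FMC list, Pelp1, Zfp148 and Wdr18 were higher and 0 lower. Pelp1 followed the lists as Zfp148 did, at 41.2, 1.94 and 3.34 FPKM against 51.7, 41.0 and 54.4 FPKM. Wdr18 was at 41.6, 38.2 and 33.7 FPKM against 48.4, 50.7 and 53.2 FPKM, while Senp3, the most abundant gene of the list, overlapped between the groups.

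Of 18 β-catenin destruction complex genes, 1 was higher and 2 were lower at an unadjusted p of at most 0.05. Dvl1, which recruits Axin to the membrane, was at 3.20, 5.06 and 2.41 FPKM against 7.76, 5.66 and 8.30 FPKM, without overlap. Apc, a scaffold beside Axin1, was at 0.496, 0.465 and 1.33 FPKM against 0, 0.0233 and 0.267 FPKM, without overlap. It rested on 2, 4 and 7 fragments against 0, 1 and 2. Csnk1a1 followed the lists. The most abundant genes of the list, the kinase Gsk3b at 88.0 to 115 FPKM against 80.5 to 92.4 FPKM and the Wnt co-receptor Lrp6 at 59.5 to 73.2 FPKM against 65.5 to 89.6 FPKM, overlapped. Of 9 Wnt target genes, Dkk1, a secreted Wnt inhibitor, was higher, at 0 throughout NMDA + PBS and at 0.361, 0.474 and 0.238 FPKM in NMDA + SCF. These values stand for 3, 4 and 2 fragments, close to the floor of 3. The most abundant targets, Ccnd1 at 19.9 to 20.7 FPKM against 14.99 to 20.7 FPKM and Lgr5 at 9.99 to 18.8 FPKM against 13.0 to 14.5 FPKM, overlapped.

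Of 14 peroxisomal fatty acid oxidation genes, 2 were higher at that threshold and 0 lower. Pex14, part of the peroxisomal import pore, was at 41.8, 36.7 and 35.6 FPKM against 55.7, 57.8 and 54.9 FPKM, and Crot followed the lists. Hsd17b4, the multifunctional β-oxidation enzyme, was at 59.4 to 65.8 FPKM against 69.6 to 76.8 FPKM, without overlap and above the threshold on p, and Scp2, a peroxisomal thiolase and carrier, was at 50.1 to 58.1 FPKM against 40.3 to 59.3 FPKM. Of 10 cartilage and sclera genes, Col2a1, the main fibrillar collagen of cartilage and vitreous, was higher, at 1.79, 1.54 and 0.917 FPKM against 8.32, 2.34 and 2.94 FPKM. It rested on 3, 3 and 2 fragments against 14, 4 and 5. Sox9, at 24.9 to 35.5 FPKM against 24.8 to 28.3 FPKM, and Col9a1, at 2.53 to 6.24 FPKM against 3.32 to 5.00 FPKM, overlapped. Of 11 neighbours of Tusc2 in the conserved block known as 3p21.3 in humans, Tmem115 was higher, at 77.1, 58.3 and 48.1 FPKM against 90.5, 103 and 104 FPKM, and Rassf1 overlapped at 2.95 to 17.8 FPKM against 6.93 to 8.36 FPKM. Of 9 genes of mitochondrial calcium uptake, 0 passed in either direction. The most abundant, Letm1, was at 19.3 to 29.5 FPKM against 24.5 to 29.1 FPKM, and Mcur1 at 18.6 to 23.8 FPKM against 20.5 to 23.7 FPKM.

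The genes most like each of the 6 were found among 9893 coding genes with a mean of at least 1 FPKM, by Pearson correlation of log2(FPKM + 1) over the 6 libraries. These libraries share the treatment contrast and the 2 transcript lists, and with so few points many genes reach high values. Aff4 was nearest to Wdr47 (r = 0.989), Klf7 (0.988) and the mitochondrially encoded mt-Nd1 (0.988). Chtop was nearest to Depdc5 (0.990), Abcd2 (0.989) and Me1 (0.988), and Abcd2 to Depdc5 (0.999), the mitochondrially encoded mt-Co1 (0.997) and Chtop (0.989). Axin1 was nearest to Ptpn18 (0.990), Exosc5 (0.983) and Osbpl1a (0.981), Cnmd to Tsg101 (0.990), Wdr47 (0.983) and Bnip3 (0.980), and Tusc2 to Mrpl51 (0.994), Trip10 (0.989) and Gpd1l (0.988). Between 10 and 61 genes had an r above 0.95 with 1 of the 6. Depdc5 rested on 6, 6 and 9 fragments against 1, 1 and 1, whereas mt-Co1 had 66315 to 114156 fragments in NMDA + PBS and 30428 to 33612 in NMDA + SCF, at 12608 to 16639 FPKM against 5748 to 6290 FPKM.

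The tissue label was checked on marker lists, and some of these moved with the groups. Rod photoreceptor markers were above 0 for 10 of 10 genes and summed to 6196 to 8695 FPKM in NMDA + PBS and 7286 to 8341 FPKM in NMDA + SCF. Retinal ganglion cell markers were above 0 for 8 of 10 genes. They summed to 269 to 471 FPKM against 266 to 324 FPKM, which overlapped. In fragments they summed to 2909 to 3259 against 1797 to 2184, which did not overlap per counted fragment either. Of these markers, Nefh followed the transcript lists, at 107, 881 and 735 fragments against 88, 82 and 70. So did Slc17a6, at 2, 97 and 160 fragments against 1, 0 and 4. The total of NMDA + PBS replicate 1, which shares list A, was 3080 fragments. Lens markers, 16 of 18 above 0, summed to 27.1 to 346 FPKM against 675 to 12044 FPKM, and ciliary body and iris markers, 7 of 8 above 0, to 15.4 to 18.5 FPKM against 24.1 to 31.4 FPKM. Cornea markers, 4 of 6 above 0, summed to 15.04 to 46.3 FPKM against 3.73 to 13.0 FPKM. The lens, ciliary body and cornea sums did not overlap between the groups, and the part of these lists and of the retinal ganglion cell markers in the values of the 6 genes was not tested. Markers of Müller glia (8 of 9 genes above 0), microglia and macrophages (7 of 10), pigment epithelium (8 of 9), blood (4 of 6) and endothelium and pericytes (6 of 7) had sums that overlapped.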

How the data were processed

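RNA-seq of 3 NMDA + PBS and 3 NMDA + SCF retinal libraries was analysed. Reads from poly(A)-enriched mRNA were filtered by the authors, who deposited FPKM per transcript for each library, without pooling. A deposited table of sequencing totals gave clean reads (44925938 to 48783182) and the percent of bases at quality 30 or above (92.9 to 94.3%). The aligner, the counter, the use of strand and the way reads were divided among overlapping transcripts are not given in the sources used here. The submitters' processing notes name mm9, but 98.2% of the 63345 transcripts found in GENCODE M21 lay at their GRCm38 positions, so GRCm38 is used. Merged transcripts without gene names (8.85 to 11.4% of FPKM) were left out.

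FPKM was summed per gene over shared Ensembl transcripts. FPKM times transcript length was a whole number of fragments (within 0.05) for 99.95 to 99.96% of values above 0, which gave fragments and depth. Intervals and floors of 3 fragments cover counting error only. Intervals on group ratios leave out the spread between libraries and the selection of the genes, so they test no group difference. Genes above 0 were compared on log2(FPKM + 1) with limma 3.58.1 (R 4.3.3, variance trend, Benjamini-Hochberg adjustment), all 6 libraries and condition only, at a fold of 2 and an adjusted p of 0.001. The fit was also run on simulated data, whose outcome is not reported here. Alternatives were upper quartile and median-of-ratios scaling, a pseudocount of 0.1, a mean of at least 1 FPKM, all listed transcripts, voom on fragments, other call thresholds, the replicate number as a block, leaving out single libraries, and list A alone.

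The 6 genes and all lists were chosen with earlier results of these data known. Named genes were the 6, their relatives (of which 1 is not reported here), the 2 most abundant genes of each pathway list and any at an adjusted p of 0.05 (there were none), and the 3 most correlated genes of each member. Genes named for passing an unadjusted p, for not overlapping or for following the transcript lists were chosen after their values were seen. Python 3.11.15 was used for sums, counting intervals and figures. Printed windows are from shared transcripts, other than the longest coding one, that made up at least 20% of the gene's difference.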

Additional observations from a re-analysis of the deposited data

How the results depend on the processing

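Of 84 log2 fold changes of the 6 genes under 14 alternatives, 68 lay within 1 SD of the reported value. The SD is the pooled SD within groups on log2(FPKM + 1). This tally is no sign of stability, since several settings could not move a value. The replicate block and the mean of at least 1 FPKM left all 6 unchanged. All listed transcripts left Aff4, Chtop, Axin1 and Cnmd unchanged. Leaving out an NMDA + SCF library left Axin1 and Abcd2 unchanged. Since the genes were selected for groups that do not overlap, leaving out a library or keeping list A alone could not change their direction or separation, and these are no sign of stability. With all listed transcripts 5 of the 6 were without overlap. Without NMDA + PBS replicate 1, the remaining NMDA + PBS libraries are all list B and the NMDA + SCF libraries all list A. Treatment and transcript list cannot then be told apart. The number of genes called stayed at 0 except in this setting. Over the libraries left out it ranged from 0 to 55, and genes without overlap from 4936 to 8079, against 3548 with all. Pathway genes called ranged from 0 to 1 (Csnk1a1, without NMDA + PBS replicate 1). Within list A 11953 genes did not overlap, with 1 NMDA + PBS library. At an unadjusted p of at most 0.05, 2324 genes passed, and at an adjusted p of at most 0.05, 0 (2 with voom). With the replicate number as a block 0 genes were called and 1856 passed an unadjusted p of 0.05. Same-numbered libraries did not deviate together (r = -0.041, -0.039 and -0.064). With deviations from means of 3 libraries, this cannot decide whether the numbers pair them.

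Values of 1 to 6 fragments behind Abcd2, Tusc2, Chtop-202 and Axin1-205 set the limit of the comparison, and 3 fragments of Tusc2-202 stand for 2.24 to 2.92 FPKM. A pseudocount of 0.1 moved the log2 fold change of all 6 genes by over 1 SD. It went from -2.42 to -5.46 in Axin1, from -2.22 to -3.84 in Cnmd and from 1.72 to 2.46 in Tusc2. In Chtop it went from -1.89 to -2.33 and in Aff4 from -1.27 to -1.43. Abcd2, for which no fold is given, moved as well. All listed transcripts moved Tusc2 from 1.72 to 4.49 and also moved Abcd2.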
